A study of Mus musculus with 6 samples.

Results

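The miR-148 and miR-152 family was followed here in the livers of mice with metabolic dysfunction-associated fatty liver disease (MAFLD) and of control mice. Its members were taken by name from a list of 1546 mature mouse miRNAs, and all 6 were present: mmu-miR-148a-3p, mmu-miR-148a-5p, mmu-miR-148b-3p, mmu-miR-148b-5p, mmu-miR-152-3p and mmu-miR-152-5p. Male C57BL/6 mice entered the study at 8 weeks of age and received either a normal diet (NC) or a high-fat diet (MAFLD) for 16 weeks. No transgene, deletion or drug was part of either group. Total liver RNA of 3 NC and 3 MAFLD samples was analysed by small RNA sequencing, with 1 library per sample, and the labels do not say whether a library came from 1 mouse or from several, so p-values measure only the spread between these samples, which may be technical. Whole liver holds hepatocytes together with endothelial, stellate, blood and immune cells.

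A miRNA gene is transcribed as a hairpin, which is cut to a short duplex of a 5p and a 3p strand. One strand, the guide, is loaded into an Argonaute protein and directs it to messenger RNAs that match its seed, bases 2 to 8 of the guide, while the other strand, the passenger, is mostly degraded. In this family the 3p strand is the guide. MiR-148a is known as one of the most abundant miRNAs of the liver, where it acts in hepatocyte differentiation and represses the LDL receptor and the cholesterol exporter ABCA1. The DNA methyltransferase DNMT1 is a known target of miR-148a and miR-152.

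The mature sequences are given first because the 3 guides can be told apart only by a few bases, on which every count below depends. They come from RefSeq (GRCm38.p6), where all 6 members were matched, and are written 5′ to 3′ with the seed in capitals.
mmu-miR-148a-3p: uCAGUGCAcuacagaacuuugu
mmu-miR-148b-3p: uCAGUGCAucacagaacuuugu
mmu-miR-152-3p: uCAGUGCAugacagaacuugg
mmu-miR-148a-5p: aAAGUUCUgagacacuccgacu
mmu-miR-148b-5p: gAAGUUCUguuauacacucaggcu
mmu-miR-152-5p: uAGGUUCUgugauacacuccgacu

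The 3 guides have the same seed, CAGUGCA, and no other name among 1679 mature mouse miRNAs in RefSeq has it at bases 2 to 8. Counted from the 5′ end, miR-148a-3p and miR-148b-3p differ at 2 of 22 positions (C9U and U10C), and miR-148a-3p and miR-152-3p differ at 3 of 21 (C9U, U10G and U20G). MiR-148b-3p and miR-152-3p differ at 2 of 21 positions (C10G and U20G). The passengers are less alike. MiR-148a-5p and miR-148b-5p have the seed AAGUUCU in common but differ at 9 of 22 positions, and miR-152-5p has a seed of its own, which departs from theirs by A3G.

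The hairpins are shown with both arms in capitals to place guide and passenger on the same molecule.
Mir148a: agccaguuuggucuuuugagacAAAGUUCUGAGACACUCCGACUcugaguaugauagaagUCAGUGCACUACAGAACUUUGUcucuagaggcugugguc
Mir148b: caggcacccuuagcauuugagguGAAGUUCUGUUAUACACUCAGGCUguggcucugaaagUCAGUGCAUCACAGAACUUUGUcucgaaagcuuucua
Mir152: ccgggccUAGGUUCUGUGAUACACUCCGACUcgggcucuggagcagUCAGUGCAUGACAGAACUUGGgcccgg

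Each hairpin is a gene on its own chromosome of GRCm38. Mir148a (ENSMUSG00000065505.1, 99 nt) lies on the minus strand at chr6:51269812-51269910, outside any other annotated gene, and the nearest gene in GENCODE M21 is the lincRNA Gm32479, 13621 bases away. Mir148b (ENSMUSG00000065560.1, 97 nt) lies on the plus strand at chr15:103285125-103285221 in intron 1 of Copz1. Mir152 (ENSMUSG00000065515.1, 73 nt) lies on the plus strand at chr11:96850393-96850465 in intron 1 of Copz2. Copz1 and Copz2 encode the zeta subunits of the coatomer, the coat of vesicles that travel from the Golgi to the endoplasmic reticulum, and both run in the direction of the miRNA they hold. No exon of either host gene overlaps the hairpin.

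The authors deposited CPM values, in which the reads of each miRNA are scaled so that the listed miRNAs sum to the same total (1e6) in every library. The values were whole multiples of what 1 read is worth, so the reads behind them could be recovered. Depth ranged from 1336935 to 2549598 reads in the NC libraries and from 1534569 to 4685712 in the MAFLD libraries, and the level of 3 reads, taken as the smallest the depth can show, lay between 0.640 and 2.24 CPM. The 95% Wilson intervals given below cover counting error only. Among markers of other cells, a brain list (miR-9, miR-124, miR-128 and miR-219a) summed to 463 CPM in NC replicate 1 and 744 CPM in NC replicate 2. The remaining 4 livers, NC replicate 3 among them, had 44.4 to 65.2 CPM of it. NC replicates 1 and 2 thus stood apart on this list, and NC replicate 3 was like the MAFLD livers. A list of skeletal or heart muscle markers did not group the livers this way. It summed to 51.4, 241 and 185 CPM in NC replicates 1 to 3 and to 37.1, 40.3 and 229 CPM in MAFLD replicates 1 to 3. Values without NC replicate 3 are given beside the results that it moves most, and they keep the 2 NC livers with the high brain list. The hepatocyte list, led by miR-192-5p, summed to 102722 to 167007 CPM in NC and 147868 to 176512 CPM in MAFLD livers.

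MiR-148a-3p headed the list of miRNAs in each of the 6 libraries. Its share of the library was 71.4% in NC replicate 1 (Wilson interval 71.3 to 71.4%), 63.3% in NC replicate 2 (63.3 to 63.4%) and 48.5% in NC replicate 3 (48.4 to 48.6%). In MAFLD livers it was 46.8% (46.7 to 46.8%), 56.7% (56.7 to 56.8%) and 51.6% (51.5 to 51.7%) in replicates 1 to 3. NC replicates 1 and 2 were above every MAFLD liver, and NC replicate 3 was below MAFLD replicates 2 and 3, so the groups overlapped. The differences between livers of a group were far wider than the intervals, so counting error was not what limited the comparison.

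**Figure D1:**
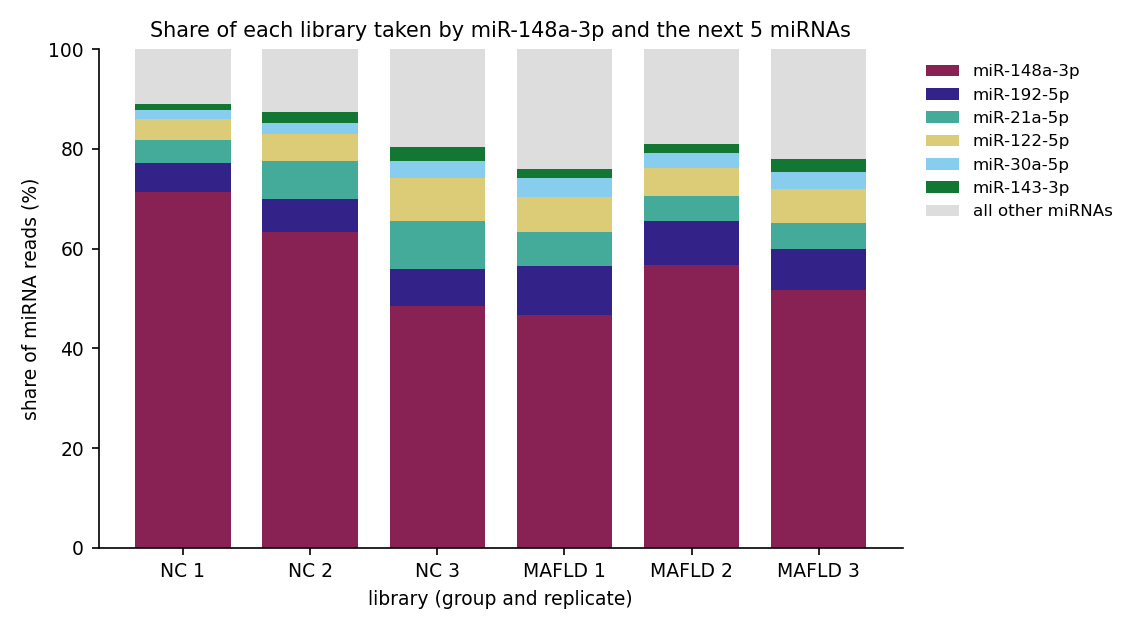
Share of the miRNA reads of each library (y axis, %) taken by miR-148a-3p, by the 5 next most abundant miRNAs and by all others, for 3 NC and 3 MAFLD libraries (x axis, group and replicate). MiR-148a-3p takes between 46.8% and 71.4% of the reads, and the groups overlap because NC replicate 3 is at 48.5%.

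The mean share was 61.1 ± 11.6% (SD, n = 3) in NC and 51.7 ± 4.99% (SD, n = 3) in MAFLD livers. The difference of −9.37 percentage points did not pass a two-sided exact permutation test (p = 0.3, where 3 livers against 3 cannot go below 0.1). In the fit across miRNAs on log2(CPM + 1), the log2 fold change of miR-148a-3p was −0.23 (standard error 0.21, 95% interval −0.66 to 0.21, adjusted p = 0.564 from limma). It was −0.38 (adjusted p = 0.0660) without NC replicate 3 and −0.10 (adjusted p = 0.830) without NC replicate 1. Without NC replicate 3 the difference in share was −15.6 points and the 2 NC livers left stood above all MAFLD livers (exact permutation p = 0.1), and without NC replicate 1 it was −4.22 points. The brain list and miR-148a-3p were both highest in NC replicates 1 and 2, and the part of tissue composition in the share was not tested. In bulk tissue, fewer cells of a type and less RNA per cell cannot be told apart.

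The next most abundant miRNAs were far behind. MiR-192-5p, a liver and gut miRNA, was at 66501 ± 8106 CPM (SD, n = 3) in NC and 89348 ± 7944 CPM (SD, n = 3) in MAFLD livers, and miR-21a-5p was at 72545 ± 25198 and 57491 ± 9516 CPM. MiR-122-5p, the defining miRNA of hepatocytes, was at 60580 ± 22146 and 64494 ± 8171 CPM, and miR-30a-5p and miR-143-3p followed at means over all libraries of 29264 and 21020 CPM. The reads of miR-148a-3p exceeded those of the next miRNA of the same library by 12.3, 8.399 and 5.04 times in NC replicates 1 to 3 and by 4.78, 6.45 and 6.28 times in MAFLD replicates 1 to 3. That next miRNA was miR-21a-5p in NC replicates 2 and 3 and miR-192-5p in the other libraries.

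Because CPM has a fixed total, the CPM of the other miRNAs and that of miR-148a-3p are tied to each other. Of 237 other miRNAs whose mean was 10 CPM or more, 211 had a negative Pearson correlation with miR-148a-3p over the 6 libraries and 26 a positive one, with a median r of −0.82. All of these values share the library total. The 3 miRNAs whose log2(CPM + 1) ran most like that of miR-148a-3p were miR-132-5p (r = 0.894), miR-9-5p (r = 0.842) and miR-151-3p (r = 0.782), over 6 libraries. The least alike were miR-322-5p (r = −0.997) and let-7a-1-3p and let-7c-2-3p (both r = −0.996), the latter pair with the same values in every library. Among the other members, r with miR-148a-3p was −0.959 for miR-152-3p, −0.867 for its own passenger miR-148a-5p and −0.788 for miR-148b-3p. These correlations describe the 6 libraries and were not tested.

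The order of the members' levels was the same in every library. The mature strands are 21 to 24 nt long, so CPM was compared between members without a correction for length. Whether each read covered a whole strand was not checked. Adapter ligation and PCR favour some sequences, and no molecular tags are described, so read numbers are not numbers of molecules. From the highest mean CPM to the lowest, miR-148a-3p was followed by miR-148b-3p, miR-152-3p, miR-148a-5p, miR-152-5p and miR-148b-5p. The smallest gap was between the last 2, where miR-152-5p exceeded miR-148b-5p by 1.31 to 8.75 times. MiR-148a-3p exceeded miR-148b-3p by 156 to 299 times.

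**Figure D2:**
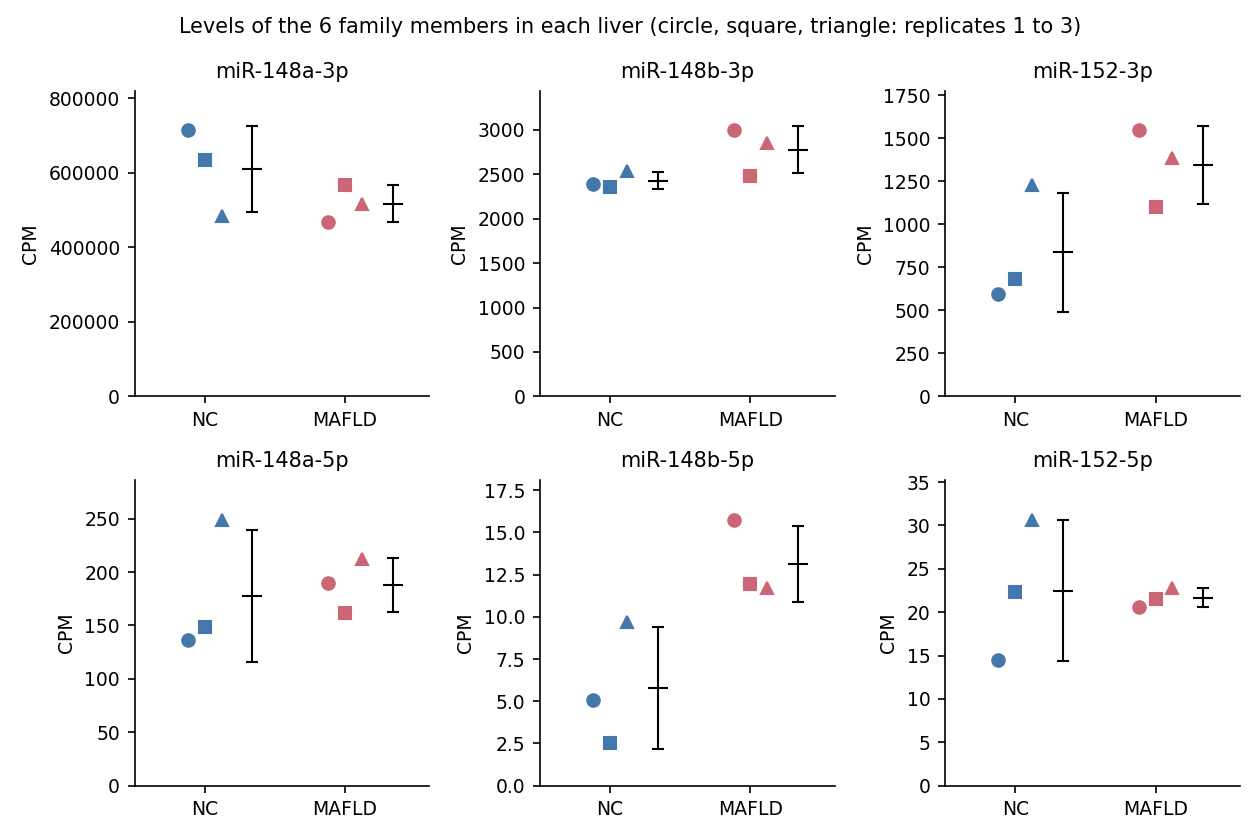
CPM (y axis, linear from 0) of the 6 members in each library, with circles, squares and triangles for replicates 1 to 3 and the mean ± SD of 3 libraries beside them. MiR-148b-5p is the member whose groups do not overlap, from 2.55 to 9.72 CPM in NC and from 11.7 to 15.8 CPM in MAFLD livers.

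MiR-148b-3p, the guide made from the Copz1 intron, stood at 2385, 2358 and 2540 CPM in NC replicates 1 to 3 and at 2992, 2480 and 2856 CPM in MAFLD replicates 1 to 3. MAFLD replicate 2 lay below NC replicate 3, so the groups overlapped. The means were 2428 ± 98.1 and 2776 ± 265 CPM (SD, n = 3 each), and limma put the log2 fold change at 0.19 (95% interval −0.41 to 0.79, standard error 0.28, adjusted p = 0.746). Its reads were 0.334 to 0.640% of those of miR-148a-3p. How many mismatches the authors allowed is not given in the sources used here, and how well reads of these near-identical guides were kept apart was not tested.

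MiR-152-3p, the guide made from the Copz2 intron, stood at 598, 681 and 1232 CPM in NC replicates 1 to 3 and at 1547, 1100 and 1383 CPM in MAFLD replicates 1 to 3. NC replicates 1 and 2 were below every MAFLD liver, and NC replicate 3 was above MAFLD replicate 2. The means were 837 ± 345 CPM (SD, n = 3) in NC and 1343 ± 226 CPM (SD, n = 3) in MAFLD livers. The log2 fold change of 0.74 (standard error 0.35, 95% interval −0.0020 to 1.49) had an adjusted p of 0.275 from limma, and it did not pass the threshold of 0.05. Without NC replicate 3 it was 1.06 with an adjusted p of 0.00877, in a fit in which 128 of 498 miRNAs passed. The 2 NC livers then left are those with the high brain list (463 and 744 CPM), whose part was not tested. With any other single library left out the log2 fold change of miR-152-3p was 0.54 to 0.88, with adjusted p of 0.303 to 0.690 from limma. Both miRNAs of the endothelial list, miR-126a-3p and miR-126a-5p, were detected, and their sum was 4710 to 6587 CPM in NC and 7659 to 10155 CPM in MAFLD livers. On this scale 15.2% of all miRNAs tested were higher in every MAFLD liver, and the median log2 fold change of all was 0.43. The list of 5 stellate or mesenchymal markers, all detected, summed to 12612 to 30033 CPM in NC and 19775 to 26950 CPM in MAFLD livers. No marker of either list was at 0, and their part in the level of miR-152-3p was not tested.

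The passengers were scarce by comparison. MiR-148a-5p stood at 136, 148.5 and 249 CPM in NC and at 189, 161 and 212 CPM in MAFLD livers, with the highest value in NC replicate 3. Its means were 178 ± 62.0 and 188 ± 25.3 CPM (SD, n = 3 each), and limma gave a log2 fold change of 0.12 with a standard error of 0.38 (adjusted p = 0.896). MiR-152-5p stood at 14.5, 22.3 and 30.7 CPM in NC and at 20.6, 21.6 and 22.8 CPM in MAFLD livers. The MAFLD values all lay inside the NC range, and the log2 fold change was 0.0071 (standard error 0.46, 95% interval −0.96 to 0.98, adjusted p = 0.996 from limma).

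MiR-148b-5p was the 1 member whose groups did not overlap in CPM. It stood at 5.10 CPM (13 reads), 2.55 CPM (4 reads) and 9.72 CPM (13 reads) in NC replicates 1 to 3 and at 15.8 CPM (42 reads), 11.95 CPM (56 reads) and 11.7 CPM (18 reads) in MAFLD replicates 1 to 3. Every MAFLD liver was above every NC liver, but the Wilson interval of NC replicate 3, 5.68 to 16.6 CPM, took in all 3 MAFLD values. The means were 5.79 ± 3.64 CPM (SD, n = 3) in NC and 13.1 ± 2.26 CPM (SD, n = 3) in MAFLD livers. The log2 fold change was 1.19 (standard error 0.53, 95% interval 0.062 to 2.32, adjusted p = 0.249 from limma), and it was 1.59 with an adjusted p of 0.0293 without NC replicate 3 and 0.79 with an adjusted p of 0.660 without NC replicate 2.

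No member passed an adjusted p of 0.05, which 1 of the 501 miRNAs tested passed (0.2%). At an unadjusted p under 0.05 in limma, 1 of the 6 members was higher, miR-148b-5p (unadjusted p of 0.0400), against 13.4% of all miRNAs tested. Groups in which all MAFLD values were higher were found for 1 of 6 members and for 15.2% of all miRNAs tested. These shares do not set the family apart from the other miRNAs. On the CPM scale all miRNAs together had a median log2 fold change of 0.43, and relative to this median miR-148a-3p stood at −0.66, miR-148b-3p at −0.24, miR-152-3p at 0.31, miR-148a-5p at −0.31, miR-148b-5p at 0.76 and miR-152-5p at −0.42.

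The shift of all miRNAs depended on the scaling, and so did the sign of 3 members. With median-ratio scaling the median of all miRNAs was 0.044, with edgeR 0.034 and with DESeq2 −0.0049. MiR-148b-3p, miR-148a-5p and miR-152-5p, all above 0 in CPM, were below 0 with each of these, at −0.28, −0.34 and −0.44 under median-ratio scaling. In the same order miR-148a-3p stayed below 0 at −0.69, −0.74 and −0.80, with adjusted p of 0.305, 0.293 and 0.215. MiR-152-3p stayed above 0 at 0.28, 0.29 and 0.27, and miR-148b-5p at 0.79, 0.81 and 0.79, and none of these passed an adjusted p of 0.05.

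**Figure D3:**
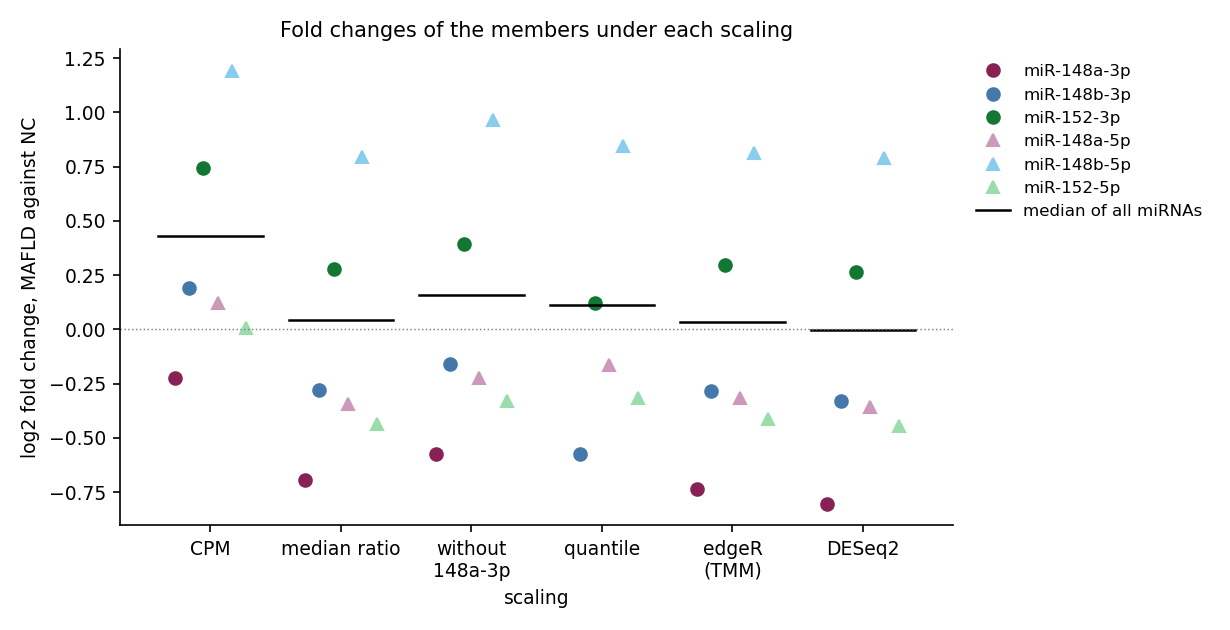
Log2 fold change of each member in MAFLD against NC livers (y axis) under 6 ways of scaling the libraries (x axis), with circles for guides, triangles for passengers and a black line for the median of all miRNAs tested. MiR-148b-5p and miR-152-3p are above 0 and miR-148a-3p below 0 wherever they have a value, and the other 3 members cross 0; miR-148a-3p has no value under quantile normalization.

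To take the largest component out of the total, the other members were also expressed as CPM of the reads that were not miR-148a-3p. On this scale miR-152-3p stood at 2089, 1856 and 2393 in NC replicates 1 to 3 and at 2905, 2542 and 2860 in MAFLD replicates 1 to 3. All MAFLD livers were then above all NC livers, NC replicate 3 included, and the means were 2113 ± 269 and 2769 ± 198 (SD, n = 3 each). MiR-148b-5p was also higher in every MAFLD liver, at 17.8, 6.95 and 18.9 in NC and 29.6, 27.6 and 24.2 in MAFLD livers. MiR-152-5p was lower in every MAFLD liver, at 50.7, 60.8 and 59.6 in NC and 38.8, 49.8 and 47.1 in MAFLD livers, but it did not pass the test on this scale. Its separation rests on NC replicate 1 (50.7, from 37 reads) against MAFLD replicate 2 (49.8, from 101 reads), a gap so narrow that counting error limits it.

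Higher values without overlap were thus seen for 2 of the 5 remaining members on this scale and lower values for 1, against 14% and 7.58% of all miRNAs tested. With only 5 members these counts are a description of these livers and do not set the family apart. The closest livers of miR-148b-5p, NC replicate 3 and MAFLD replicate 3, rest on 13 and 18 reads. MiR-148b-3p, at 8333, 6432 and 4934 in NC and 5620, 5734 and 5903 in MAFLD livers, overlapped, as did miR-148a-5p. In limma on this scale the log2 fold changes were 0.40 for miR-152-3p (adjusted p = 0.289), 0.96 for miR-148b-5p (adjusted p = 0.306) and −0.33 for miR-152-5p (adjusted p = 0.648). No member was among the 0.399% of miRNAs that passed.

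Ratios between the guides do not depend on the library total. MiR-148a-3p made up 99.04 to 99.58% of the reads of the 3 guides in every library. For each 100 reads of miR-148a-3p there were 0.334, 0.372 and 0.524 reads of miR-148b-3p in NC replicates 1 to 3 and 0.640, 0.437 and 0.553 in MAFLD replicates 1 to 3. The corresponding values of miR-152-3p were 0.0838, 0.107 and 0.254 in NC and 0.331, 0.194 and 0.268 in MAFLD livers. NC replicates 1 and 2 were the lowest livers for both ratios, and NC replicate 3 lay among the MAFLD livers.

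**Figure D4:**
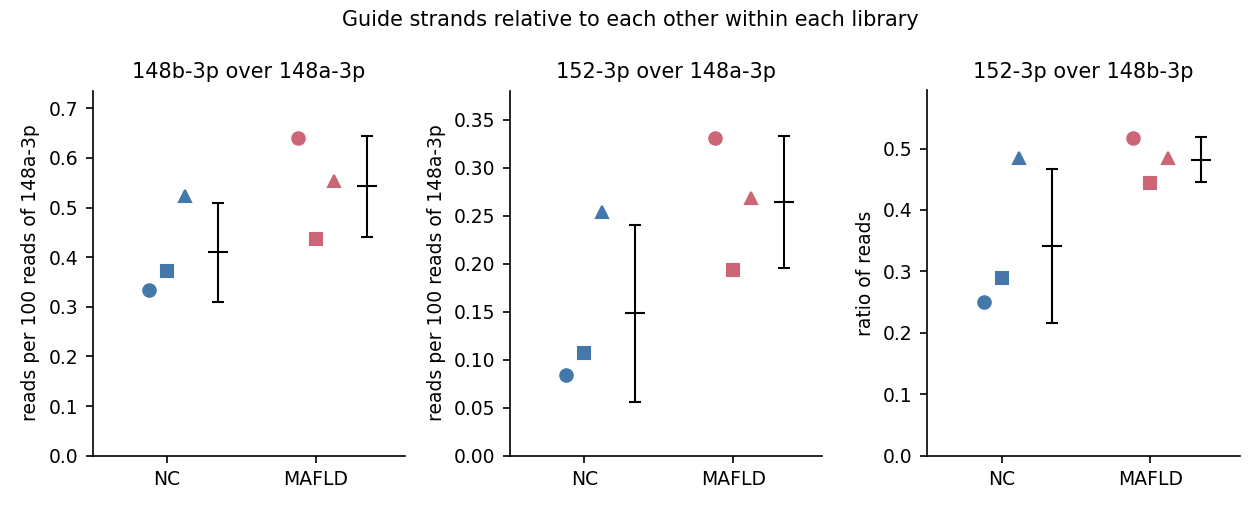
Reads of miR-148b-3p and miR-152-3p per 100 reads of miR-148a-3p, and reads of miR-152-3p per read of miR-148b-3p (y axes, linear from 0), in 3 NC and 3 MAFLD libraries, with the mean ± SD beside the points. In each panel NC replicates 1 and 2 are below the MAFLD libraries and NC replicate 3 is among them.

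On the log2 scale the ratio of miR-148b-3p to miR-148a-3p was higher by 0.42 in MAFLD livers and that of miR-152-3p to miR-148a-3p by 0.97, each with a two-sided exact permutation p = 0.2. MiR-152-3p had 0.251, 0.289 and 0.485 reads per read of miR-148b-3p in NC and 0.517, 0.443 and 0.484 in MAFLD livers. This ratio was higher by 0.55 on the log2 scale (exact permutation p = 0.3). The groups overlapped for all 3 ratios. With 3 livers against 3 the exact permutation p cannot go below 0.1, so this test could not have passed a threshold of 0.05. Without NC replicate 3 the log2 difference was 0.61 for miR-148b-3p to miR-148a-3p (exact permutation p = 0.2), 1.44 for miR-152-3p to miR-148a-3p and 0.84 for miR-152-3p to miR-148b-3p (exact permutation p = 0.1 each, the smallest that 2 livers against 3 allow). The 2 NC livers then left are those with the high brain list (463 and 744 CPM), whose part was not tested. Without NC replicate 1 the same differences were 0.28, 0.64 and 0.36 (exact permutation p = 0.4, 0.4 and 0.3).

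The summed share of the 3 guides, which have 1 seed and so can address the same sites, was 61.4 ± 11.5% (SD, n = 3) of the library in NC and 52.1 ± 4.95% (SD, n = 3) in MAFLD livers. The difference of −9.28 points had an exact permutation p = 0.3. It was −15.5 points without NC replicate 3 (exact permutation p = 0.1) and −4.15 points without NC replicate 1 (exact permutation p = 0.6). MiR-148b-3p and miR-152-3p together made up less than 1% of that sum in each library.

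All 3 hairpins gave far more 3p than 5p reads. Among 105 hairpins with both arms at a mean of at least 1 CPM, 55 had more 3p and 50 more 5p, and the median of the absolute log2 ratio was 2.74. The mean log2 ratio of 3p to 5p was 11.6 for mir-148a, the highest of the 105, 8.13 for mir-148b, in position 4, and 5.51 for mir-152, in position 9. The guides of the family all begin with U, a base favoured at the 5′ end of loaded strands, and so do 50% of the more abundant and 23.3% of the less abundant arms over the 86 of these hairpins with both arms in RefSeq. MiR-152-5p also begins with U, whereas miR-148a-5p begins with A and miR-148b-5p with G.

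The 3p/5p ratios of mir-148b and mir-152 did not overlap between the groups, in opposite directions, but neither difference passed the adjusted threshold. Mir-148b gave 468, 925 and 261 reads of 3p per read of 5p in NC replicates 1 to 3 and 190, 208 and 243 in MAFLD replicates 1 to 3. Every MAFLD liver was below every NC liver, and its passenger made up 0.213, 0.108 and 0.381% of the hairpin's reads in NC and 0.524, 0.480 and 0.409% in MAFLD livers. The closest livers, NC replicate 3 and MAFLD replicate 3, rest on 13 and 18 passenger reads. The Wilson intervals of these passenger levels overlap (5.68 to 16.6 and 7.42 to 18.5 CPM), so counting error limits this separation. Mir-152 gave 41.2, 30.5 and 40.2 reads of 3p per read of 5p in NC and 74.96, 51.02 and 60.7 in MAFLD livers. Every MAFLD liver was above every NC liver, and its passenger made up 2.37, 3.17 and 2.43% in NC and 1.32, 1.92 and 1.62% in MAFLD livers. Here NC replicate 1 and MAFLD replicate 2 were the closest livers, with 37 and 101 passenger reads, so counting error limits the separation of mir-152 as well.

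**Figure D5:**
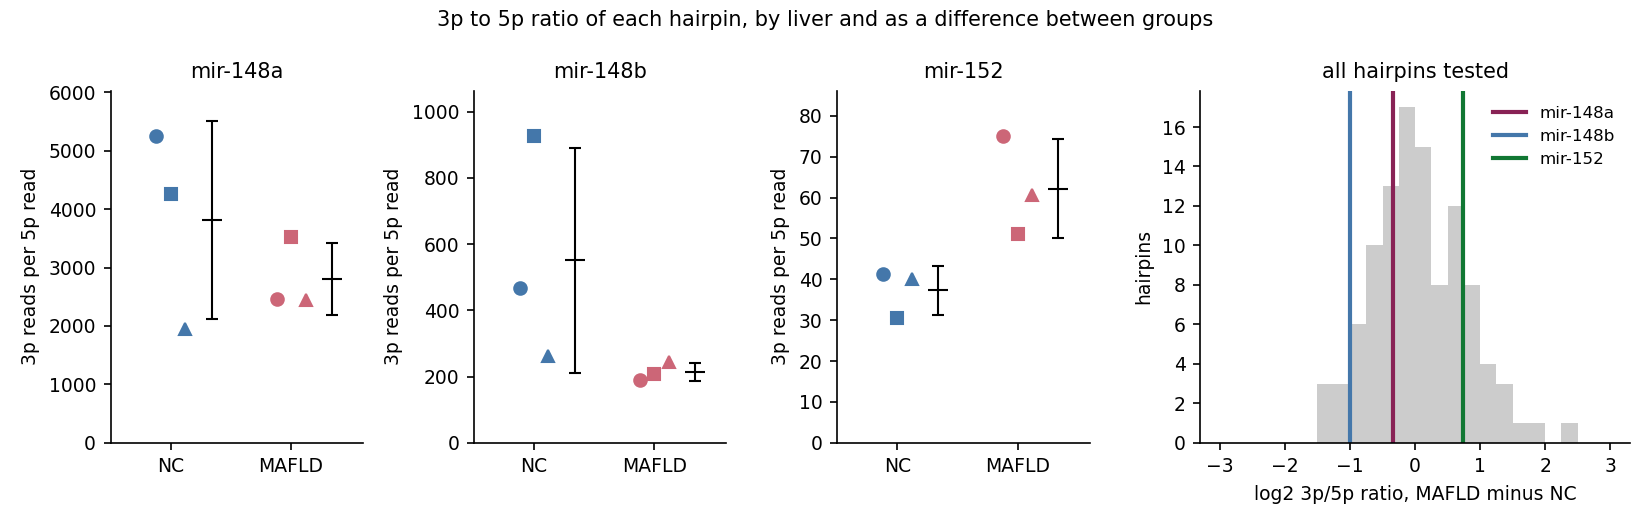
Reads of the 3p arm per read of the 5p arm (y axes, linear from 0) of mir-148a, mir-148b and mir-152 in each library with the mean ± SD, and, at the right, the number of hairpins (y axis) by the MAFLD minus NC difference of the log2 ratio (x axis) for all 105 hairpins. MAFLD libraries are all below NC for mir-148b (−1.002) and all above NC for mir-152 (0.74), and both differences lie inside the range of the other hairpins.

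On the log2 scale the ratio of mir-148b (with 1 CPM added to each arm) was 8.63 ± 0.74 in NC and 7.62 ± 0.17 in MAFLD livers (SD, n = 3 each, log2 difference −1.002, standard error 0.38, 95% interval −1.84 to −0.17, adjusted p = 0.205 from limma over 105 hairpins). That of mir-152 was higher by 0.74, from 5.14 ± 0.24 to 5.88 ± 0.28 (SD, n = 3 each, standard error 0.29, 95% interval 0.096 to 1.38, limma adjusted p = 0.228). Both had p = 0.1 by exact permutation, the smallest that 3 livers against 3 allow. The adjusted threshold was passed by 0% of the 105 hairpins, while 14.3% had an unadjusted p under 0.05 in limma. Ratios without overlap were found toward 3p in 9.52% of hairpins and toward 5p in 10.5%, so 1 of 3 in each direction is a description of these livers.

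Without NC replicate 3 the difference of mir-148b was −1.37 (adjusted p = 0.0274 from limma, in a fit in which 11 of 104 hairpins passed), and without NC replicate 2, the liver with 4 reads of miR-148b-5p, it was −0.63 (adjusted p = 0.665). Without each library in turn the difference of mir-152 was 0.59 to 0.87, with adjusted p of 0.113 to 0.665 from limma. Its direction could not turn, because the groups of mir-152 do not overlap. Its passenger rests on 35 to 101 reads in each library. Mir-148a gave 5244, 4266 and 1948 reads of 3p per read of 5p in NC and 2468, 3517 and 2438 in MAFLD livers. Its groups overlapped, with NC replicate 3 the lowest of all, and the log2 difference was −0.35 (standard error 0.40, 95% interval −1.23 to 0.53, adjusted p = 0.695 from limma). It was −0.77 without NC replicate 3 (adjusted p = 0.0907), −0.21 without NC replicate 2 (adjusted p = 0.886) and −0.060 without NC replicate 1 (adjusted p = 0.965).

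MiR-148a shares its known role at the LDL receptor and cholesterol exporters with other liver miRNAs. A list of 15 miRNAs linked to cholesterol or lipid genes, all tested, held 0 past an adjusted p of 0.05 in limma. At an unadjusted p under 0.05 it held 3 of 15 that were higher and 0 that were lower, beside 67 (13.4%) and 23 of all 501 miRNAs, so the list lay near the background. Its median log2 fold change was 0.41, beside 0.43 for all miRNAs. The 3 higher were miR-34a-5p (1.43, adjusted p = 0.152), miR-30c-5p (1.07, adjusted p = 0.152) and miR-27b-3p (0.75, adjusted p = 0.257). MiR-128-3p, which like miR-148a-3p is known to repress the LDL receptor, stood at −1.003 on this scale (limma, adjusted p = 0.299) and is also in the brain list.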

How the data were processed

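Small RNA libraries of 3 NC and 3 MAFLD livers (inserts of 14 to 40 nt) were sequenced by the authors, who deposited CPM values scaled to the reads of all listed miRNAs. Per the labels, the submitters' processing notes name FastQC, cutadapt, Bowtie, edgeR and GRCm38, without roles or versions. The miRNA database is not given in the sources used here. Dividing by the smallest value of each library gave whole reads for 100% of values (within 0.02).

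The comparison of MAFLD with NC livers used limma 3.58.1 (R 4.3.3, trend, two-sided, Benjamini-Hochberg, threshold 0.05) on log2(CPM + 1). The 501 miRNAs tested had a mean CPM of 1 or more. The same fit was run on log2 3p/5p ratios of 105 hairpins, with 1 CPM added to each arm. Fold changes are on the log2(CPM + 1) scale, which understates those of scarce miRNAs. Shares and guide ratios were compared with exact permutation tests. edgeR 4.0.16 and DESeq2 1.42.0 were run on the recovered reads as alternatives. Methods were also tried on simulated data in which no change was planted in miR-148a-3p, and no result above rests on that trial. Named are the 6 members, the 5 most abundant others, the 3 most and 3 least correlated with miR-148a-3p (mean of at least 10 CPM), and examples of the lists. Members and lists were chosen with earlier results of these data known. The HepG2 cells named in the labels' protocols were not analysed here.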

Additional observations from a re-analysis of the deposited data

How the results depend on the processing

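No alternative was added after the values were seen, and the cause was not tested for any change given here. The number of miRNAs past an adjusted p of 0.05, 1 in the report, was 11 without the filter, 2 both with median-ratio scaling and with miR-148a-3p taken out of the total, 0 without the trend (74 at an unadjusted p under 0.05), 32 with DESeq2 and 1 with edgeR, and 0 to 128 when 1 library was left out (128 without NC replicate 3, and 36 to 89 at an unadjusted p under 0.05 where it was 0). Hairpins with a changed arm ratio, 0 in the report (15 at an unadjusted p under 0.05 in limma), were 1 at a filter of 10 CPM and 0 to 11 (11 without NC replicate 3) when 1 library was left out. Same-numbered livers did not deviate together (correlations of −0.046 to 0.012), but 3 pairs are too few to show that they share only a number. With the replicate number as a block, 5 miRNAs and 3 hairpins passed, the members were not among them, and the log2 fold change of miR-152-3p was 0.74 with an adjusted p of 0.308. The split of 67 higher and 23 lower miRNAs at an unadjusted p under 0.05 became 36 and 45 with median-ratio scaling, 52 and 38 once miR-148a-3p was removed, 38 and 41 with quantile normalization, 37 and 50 with edgeR and 29 and 54 with DESeq2.

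MiR-148a-3p was lower in all 16 alternatives (−0.80 to −0.10), miR-148b-5p higher in all 16 (0.79 to 1.59) and miR-152-3p higher in all 17 (0.12 to 1.06). The filter, trend and block settings cannot change a fold change, so these counts include settings that could not turn its sign. MiR-148b-5p, whose groups do not overlap in CPM, also had to keep its sign when 1 library was left out. Quantile normalization gives miR-148a-3p, the top miRNA of each library, 1 value in all, and at 10 CPM miR-148b-5p was not tested. With median-ratio scaling, after removing miR-148a-3p, with quantile normalization, edgeR and DESeq2, in this order, miR-148a-5p turned to −0.34, −0.23, −0.17, −0.32 and −0.36, miR-148b-3p to −0.28, −0.16, −0.58, −0.28 and −0.33, and miR-152-5p to −0.44, −0.33, −0.32, −0.42 and −0.45. A pseudocount of 5 gave miR-152-5p −0.0018. Leaving out 1 library gave −0.045 to 0.39 for miR-148a-5p and −0.26 to 0.25 for miR-152-5p. The arm ratio of mir-148b stayed lower in all 10 alternatives (−1.37 to −0.61) and that of mir-152 higher in all 11 (0.59 to 0.87). Here too the filter, trend and block settings cannot change the value. Groups without overlap also keep their direction when 1 library is left out. The share of miR-148a-3p and the guide ratios kept their direction in every alternative run, although the block setting cannot change the value. With 4 to 56 reads of miR-148b-5p in a library, counting error limits its fold change.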
